A study of Homo sapiens with 4 samples.

Results

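The alcohol dehydrogenases (ADH), aldehyde dehydrogenases (ALDH) and aldo-keto reductases (AKR) were described in Huh7, an established cell line from a human liver cancer, after H2O2 or mock medium. Members were the genes whose symbol began with ALDH, or with AKR or ADH followed by a digit, and that had a RefSeq mRNA row in the deposited tables. The row with the most reads over the 4 libraries stood for each gene. This gave 38 genes of 42067, of which 7 were ADH, 19 were ALDH and 12 were AKR genes.

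RNA was measured in 2 libraries of cells kept for 4 days in 300 µM H2O2 and in 2 libraries of mock cells kept for 4 days, with the medium changed every day in both groups. All libraries came from the same cell line, and no source used here says whether the libraries of a group came from separate cultures, so p-values measure only the spread between these libraries. The titles mark 1 library of each group with the letter H and 1 with the letter Q, and the meaning of the letters is not given in the sources used here. In bulk RNA, fewer cells expressing a gene and less RNA per cell cannot be told apart.

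These enzymes move hydride between carbonyl compounds and alcohols or acids. ADH enzymes use NAD+ to turn alcohols into aldehydes or ketones, ALDH enzymes turn aldehydes into acids, and most AKR enzymes use NADPH to turn aldehydes and ketones back into alcohols. In liver they handle ethanol, retinoids, steroids, bile acids and the reactive aldehydes of lipid peroxidation, and several AKR genes are known targets of NRF2, the transcription factor of the oxidant response.

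The H2O2 libraries held 83462944 (H) and 86492977 (Q) mapped mates, and the mock libraries 78126878 (H) and 88409567 (Q). With 1 row per gene, the counts summed to between 103851326 and 113082498 per library, more than the mapped mates, so the counts are not each a separate mapped mate. The family members took 0.638% (H) and 0.569% (Q) of those counts in H2O2 cells, against 0.641% (H) and 0.53% (Q) in mock cells. Values below are CPM, reads scaled to library size after TMM scaling. The liver and hepatocellular carcinoma markers ALB, AFP, TF, APOA1, HNF4A and GPC3 summed to 17748 (H) and 9725 (Q) CPM in H2O2 cells and 15638 (H) and 4548 (Q) CPM in mock cells, so the liver label held in every library while the Q libraries stood lower. The stromal list summed to 15.7 (H) and 18.1 (Q) CPM in H2O2 cells and 20.5 (H) and 25.8 (Q) CPM in mock cells. All 5 of its genes were below 0 in log2 fold change, as were 14519 of the 27514 genes tested. Most of the sum was COL1A1, with 14.3 (H) and 15.3 (Q) CPM in H2O2 cells and 18.7 (H) and 21.8 (Q) CPM in mock cells. COL1A2, COL3A1 and LUM had 0.644 CPM or less in every library. The endothelial list summed to between 2.26 and 2.77 CPM in all 4, and the blood list to between 15.3 and 22.2 CPM in all 4. The part of these differences in the results was not tested.

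Several members have near-identical relatives, and the read length and the handling of reads with several matches are not given in the sources used here. Over coding sequences of GENCODE v29 (GRCh38), AKR1C1 and AKR1C2 were 98% identical, with 19 differing bases of 969. AKR1C1 shared 54.3% of its 50-base windows and 20.7% of its 100-base windows with a transcript of another family gene. The values of AKR1C1 and AKR1C2 are therefore uncertain as separate genes. The first 90 coding bases of the AKR1C genes on chromosome 10 are shown to make this visible, with capitals at bases that differ from AKR1C1 (coding spans chr10:4963445-4977739 on the plus strand, chr10:4989999-5003835 on the minus strand, chr10:5094445-5107500 and chr10:5196868-5218757 on the plus strand, all GRCh38):
AKR1C1: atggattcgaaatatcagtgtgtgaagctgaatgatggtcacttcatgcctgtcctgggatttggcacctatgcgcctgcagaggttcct
AKR1C2: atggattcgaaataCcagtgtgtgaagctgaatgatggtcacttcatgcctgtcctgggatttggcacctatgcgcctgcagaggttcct
AKR1C3: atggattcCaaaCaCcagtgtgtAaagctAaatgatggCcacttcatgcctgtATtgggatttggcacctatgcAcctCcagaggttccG
AKR1C4: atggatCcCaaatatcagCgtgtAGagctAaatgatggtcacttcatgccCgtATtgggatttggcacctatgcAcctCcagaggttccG
AKR1C2 differed from AKR1C1 at 1 of these bases, AKR1C3 at 11 and AKR1C4 at 12. Other members with shared 50-base windows included AKR7A3 (31.5%), ADH5 (28.5%, most with the pseudogene ADH5P4) and ALDH7A1 (22.3%).

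The class I alcohol dehydrogenases on chromosome 4 were also close relatives. ADH1A and ADH1C were 93.9% identical over the coding sequence and ADH1B and ADH1C 95.6%, and 24.6% of the 50-base windows of ADH1C lay also in another family transcript. Their first 90 coding bases follow, with capitals at bases that differ from ADH1C (coding spans chr4:99336755-99352675, chr4:99276627-99290914 and chr4:99307843-99321331 in the order shown, minus strand, GRCh38):
ADH1C: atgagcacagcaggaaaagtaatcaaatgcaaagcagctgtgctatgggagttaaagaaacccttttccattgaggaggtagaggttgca
ADH1A: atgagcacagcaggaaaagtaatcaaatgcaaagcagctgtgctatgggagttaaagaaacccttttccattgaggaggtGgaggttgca
ADH1B: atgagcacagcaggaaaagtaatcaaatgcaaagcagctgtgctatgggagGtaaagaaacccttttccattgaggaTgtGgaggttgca
ADH1A differed from ADH1C at 1 base of this stretch and ADH1B at 3.

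AKR1B10 and AKR1B15, neighbours on chromosome 7, were identical at 886 of 1032 aligned positions (85.9%), and AKR1B1 and AKR1B10 at 76.1%. Gaps count as differing in these shares, and the coding sequence of AKR1B10 has 948 bases against 1032 in AKR1B15. The 85.9% therefore understates the likeness of AKR1B10 and AKR1B15 over the bases present in both. AKR1B10 shared 28.5% of its 50-base windows and 3.53% of its 100-base windows with another family transcript. The last 90 coding bases before the stop codon are given because this end separates the 3 genes, with capitals at bases that differ from AKR1B10 (coding spans chr7:134527912-134541086 and chr7:134564620-134579546 on the plus strand and chr7:134442731-134459062 on the minus strand, GRCh38):
AKR1B10: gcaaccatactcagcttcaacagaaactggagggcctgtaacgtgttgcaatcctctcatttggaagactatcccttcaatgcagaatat
AKR1B15: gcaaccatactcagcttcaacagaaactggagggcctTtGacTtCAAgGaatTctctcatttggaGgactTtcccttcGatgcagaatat
AKR1B1: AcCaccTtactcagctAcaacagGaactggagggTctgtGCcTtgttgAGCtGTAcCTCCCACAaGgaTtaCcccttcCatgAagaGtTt
AKR1B15 differed at 11 of these bases and AKR1B1 at 30.

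ALDH1L2, the member with the lowest p, shared no 50-base window with another family transcript. Its closest relative by function, ALDH1L1, was 67.0% identical to it with gaps counted as differing, and their longest identical run was 20 bases. Their last 90 coding bases are set side by side for contrast with the pairs above, with capitals at bases that differ from ALDH1L2 (coding spans chr12:105024427-105084436 and chr3:126103794-126160979, both minus strand, GRCh38):
ALDH1L2: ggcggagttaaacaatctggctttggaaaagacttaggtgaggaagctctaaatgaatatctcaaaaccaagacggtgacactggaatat
ALDH1L1: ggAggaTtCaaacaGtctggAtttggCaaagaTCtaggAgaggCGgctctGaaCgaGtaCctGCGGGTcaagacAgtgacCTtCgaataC
They differed at 26 of these bases.

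To compare genes, CPM was divided by the length of the coding sequence in kilobases. By this level, ALDH1A1, which oxidises retinal and lipid aldehydes, stood far above the rest, at a mean of 2655 CPM per kilobase over the 4 libraries. It alone took 69.9% (H) and 63.2% (Q) of the family reads in H2O2 cells and 70.6% (H) and 58.5% (Q) in mock cells. AKR1B10, a reductase of retinal and other aldehydes that is often high in liver cancer, followed at 399 CPM per kilobase. ADH5, the class III enzyme for formaldehyde bound to glutathione and for S-nitrosoglutathione, had 187 CPM per kilobase and was the leading ADH gene.

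Below these, the aldehyde reductase AKR1A1 had 136, AKR1C1 129.97 and ALDH2, the mitochondrial acetaldehyde dehydrogenase, 127 CPM per kilobase. The order of these genes depends on the length used. Per kilobase of whole transcript, AKR1A1 had 73.1, AKR1C1 18.8 and ALDH2 20.6 CPM. By that measure ALDH18A1 (72.2) and AKR1B1 (61.2) stood above AKR1C1 and ALDH2. In all, 19 members had a mean of at least 10 CPM per kilobase, 9 lay between 1 and 10, and 7 lay under 1. The class I alcohol dehydrogenases that dominate ethanol oxidation in adult liver were among the lowest, with 0.884 CPM per kilobase for ADH1C, 0.350 for ADH1A and 0.0833 for ADH1B. ADH4, the class II enzyme, had 1.13 CPM per kilobase.

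**Figure D1:**
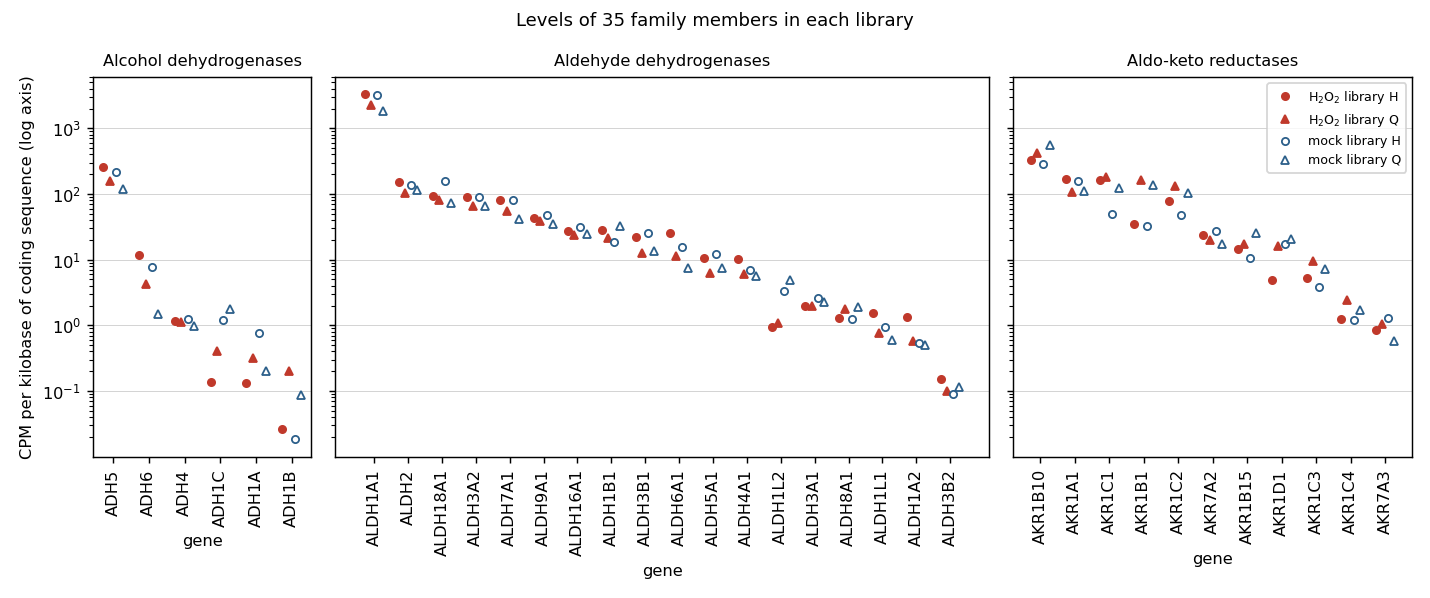
CPM per kilobase of coding sequence (log axis) in each library for the 35 members that passed the filter on low counts, by family, with H2O2 libraries filled, mock libraries open, circles for H and triangles for Q. ALDH1A1 stands above every other member, and ADH1B and ALDH3B2 are the lowest.

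A filter on low counts kept 35 of the 38 members. ADH7, the class IV enzyme, had 0 and 2 reads in H2O2 cells and 0 and 0 in mock cells (H first, as in all pairs of values below). ALDH1A3, a retinal dehydrogenase, had 2 and 2 reads in H2O2 cells and 3 and 6 in mock cells. AKR1E2 had 1 and 7 reads in H2O2 cells and 1 and 5 in mock cells. At these counts no difference in the 3 genes was detectable.

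The question put to the design was whether sustained H2O2 altered these genes. No member passed an adjusted p of 0.05 in edgeR's quasi-likelihood test, in either direction. Nor did any of the 27514 genes tested, which is 0.0% higher and 0.0% lower. At an unadjusted p of 0.05, edgeR gave 856 genes as higher (3.11%) and 1042 as lower (3.79%) in H2O2 cells, among them 0 and 2 members. DESeq2, run as an alternative, called 33 genes higher and 105 lower, with 0 members higher and 2 lower, ADH1C and ALDH1L2. limma on log2 FPKM values called 0 genes in either direction. With 2 libraries against 2, a two-sided exact permutation test of a single gene cannot go below p = 0.333.

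Of the 35 members, 19 had a log2 fold change above 0 and 16 below 0, and their median was 0.02, beside -0.029 over all genes tested. Both H2O2 values lay above both mock values for 2 members, AKR1C1 and ALDH1A2, where 18.1% of all genes tested did so. Both lay below for 4 members, ADH1C, ALDH1L2, AKR1D1 and ALDH3A1, where 21.3% of all genes did so. As shares of 35 members these counts are no larger than the background. The log2 fold change was at least 0.5 in size for 11 members, 7 higher and 4 lower, and under 0.5 for 24.

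**Figure D2:**
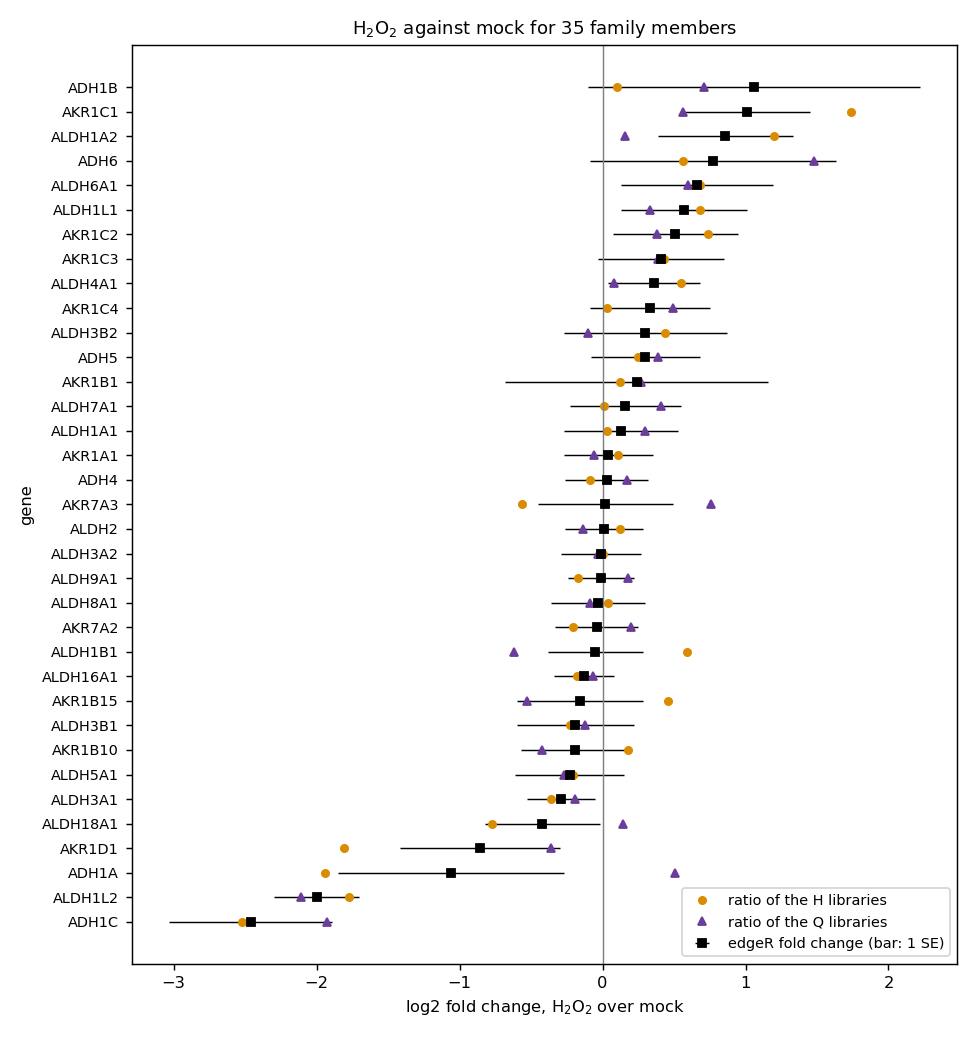
log2 fold change, H2O2 over mock, for the 35 members that passed the filter: squares are edgeR estimates with bars of 1 SE, circles the ratio of the H libraries and triangles the ratio of the Q libraries. ALDH1L2 and ADH1C lie lowest with both ratios below 0, AKR1C1 lies above 0 with both ratios, and 24 members lie within 0.5 of 0.

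ALDH1L2, the mitochondrial formyltetrahydrofolate dehydrogenase of folate metabolism, which yields NADPH, was lower in H2O2 cells, though its adjusted p missed the threshold. It had 2.60 and 3.05 CPM in H2O2 cells (266 and 365 reads) and 9.11 and 13.5 CPM in mock cells (882 and 1636 reads). Both H2O2 libraries lay below both mock libraries. Its mean was 2.83 ± 0.317 CPM in H2O2 cells and 11.3 ± 3.11 CPM in mock cells (SD, n = 2 each). The log2 fold change was -2.00 (SE 0.30), with an unadjusted p of 0.000942 and an adjusted p of 0.719 by edgeR. The log2 ratio was -1.77 within the H libraries and -2.11 within the Q libraries, so both letters gave a difference of similar size. DESeq2 gave -1.97 with an adjusted p of 3.21e-05, and edgeR with the letter as a block gave -1.98 with an adjusted p of 0.0451.

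ALDH1L1, the cytosolic enzyme of the same reaction, had 4.20 and 2.09 CPM in H2O2 cells and 2.58 and 1.64 CPM in mock cells. Its groups overlapped, and its log2 fold change was 0.57 (SE 0.44), with an adjusted p of 0.792 by edgeR. ALDH1L2 reads were 0.62 and 1.46 per ALDH1L1 read in H2O2 cells, against 3.53 and 8.22 in mock cells. The ratio was lower in both H2O2 libraries than in either mock library.

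ADH1C, a class I enzyme of ethanol and retinol oxidation, had 0.157 and 0.452 CPM in H2O2 cells (16 and 54 reads) and 1.37 and 2.0 CPM in mock cells (133 and 242 reads). The groups did not overlap, at a low level in every library. Its log2 fold change was -2.46 (SE 0.57), with an unadjusted p of 0.00714 and an adjusted p of 0.719 by edgeR, and -2.43 with an adjusted p of 0.0183 by DESeq2. It was -3.40 without the H2O2 Q library and -1.90 at the other end of the range over left-out libraries.

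ADH1A and ADH1B, its neighbours, gave no such separation. ADH1A had 0.147 and 0.360 CPM in H2O2 cells (15 and 43 reads) and 0.847 and 0.223 CPM in mock cells (82 and 27 reads). Its log2 fold change was -1.06 (SE 0.79; adjusted p = 0.787 by edgeR), and 0.20 without the mock H library, which alone was high. ADH1B had 0.0294 and 0.226 CPM in H2O2 cells (3 and 27 reads) and 0.0207 and 0.0991 CPM in mock cells (2 and 12 reads). Its log2 fold change was 1.06 (SE 1.16; adjusted p = 0.843 by edgeR), and -1.01 without the H2O2 Q library. Summed, because reads of one may fall in another, the 3 genes had 34 and 124 reads in H2O2 cells and 217 and 281 reads in mock cells. The log2 fold change of the sum was -1.73 (SE 0.56), with an adjusted p of 0.719 by edgeR.

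Among the other ADH genes, ADH5 had 286 and 178 CPM in H2O2 cells and 240.3 and 135 CPM in mock cells. The groups overlapped, with the H library above the Q library in each, and the log2 fold change was 0.30 (SE 0.38; adjusted p = 0.857 by edgeR). ADH6, the class V enzyme, had 13.1 and 4.87 CPM in H2O2 cells and 8.82 and 1.68 CPM in mock cells. It too followed the letter, and its log2 fold change of 0.77 (SE 0.86; adjusted p = 0.844 by edgeR) became 2.42 without the mock H library and -0.11 without the H2O2 H library. ADH4 had 1.32 and 1.27 CPM in H2O2 cells and 1.41 and 1.12 CPM in mock cells, a log2 fold change of 0.03.

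AKR1C1, a hydroxysteroid dehydrogenase that inactivates progesterone, was the AKR gene with the largest positive fold change, which did not pass the test. It had 161 and 175 CPM in H2O2 cells and 48.2 and 119 CPM in mock cells. Both H2O2 libraries lay above both mock libraries, and the mock libraries lay further apart than the H2O2 libraries. Its mean was 168 ± 10.2 CPM in H2O2 cells and 83.7 ± 50.3 CPM in mock cells (SD, n = 2 each). The log2 fold change was 1.01 (SE 0.44), with an unadjusted p of 0.0703 and an adjusted p of 0.723 by edgeR. It was 0.50 without the mock H library and 1.80 without the mock Q library. Within a letter the log2 ratio was 1.74 for H and 0.56 for Q.

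AKR1C2, which reduces dihydrotestosterone, had 77.1 and 129 CPM in H2O2 cells and 46.1 and 98.8 CPM in mock cells. The groups overlapped, since the H2O2 H library lay below the mock Q library, and the log2 fold change was 0.51 (SE 0.44; adjusted p = 0.808 by edgeR), or 0.07 without the mock H library. AKR1C3, which forms testosterone and prostaglandin F, had 5.11 and 9.21 CPM in H2O2 cells and 3.76 and 6.98 CPM in mock cells, with a log2 fold change of 0.41. AKR1C4, the liver form acting on bile acid precursors, had 1.2 and 2.37 CPM in H2O2 cells and 1.18 and 1.66 CPM in mock cells, with a log2 fold change of 0.33.

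All 4 AKR1C genes had positive fold changes, and none passed the test. AKR1C1 reads were 2.09 and 1.36 per AKR1C2 read in H2O2 cells, against 1.04 and 1.21 in mock cells, so the ratio was highest in the H2O2 H library. Summed, because these genes share reads, AKR1C1 to AKR1C4 had 244 and 316 CPM in H2O2 cells and 99.2 and 227 CPM in mock cells. The sums of the 2 groups did not overlap, and the log2 fold change was 0.78 (SE 0.43; adjusted p = 0.741 by edgeR).

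**Figure D3:**
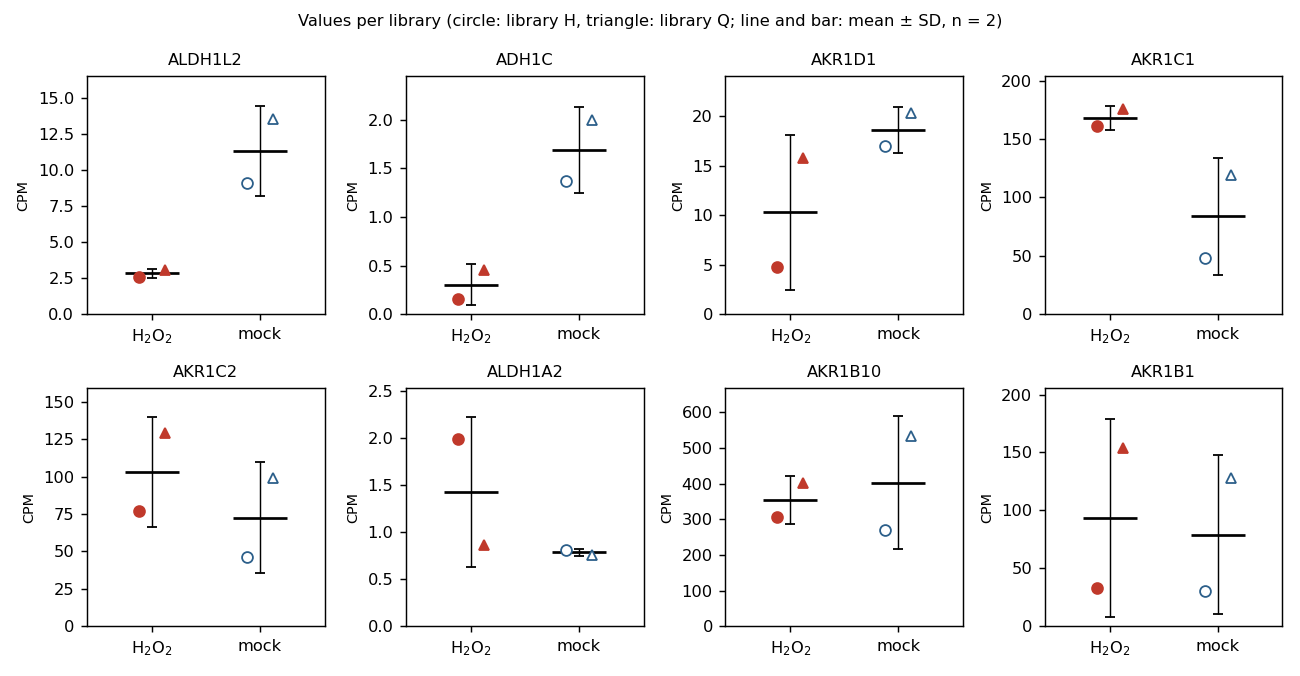
CPM per library of 8 members (circles, library H; triangles, library Q), with H2O2 left of mock and lines and bars at the mean ± SD (n = 2). The H2O2 libraries of ALDH1L2, ADH1C and AKR1D1 lie below the mock libraries and those of AKR1C1 and ALDH1A2 above, while AKR1C2, AKR1B10 and AKR1B1 overlap.

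AKR1B10 had 307 and 401 CPM in H2O2 cells and 270.04 and 534 CPM in mock cells. The mock libraries enclosed the H2O2 libraries. Its mean was 354 ± 66.4 CPM in H2O2 cells and 402 ± 187 CPM in mock cells (SD, n = 2 each), a log2 fold change of -0.19 (SE 0.38; adjusted p = 0.914 by edgeR). The sign differed between the letters, with a log2 ratio of 0.18 within H and -0.42 within Q, and without the mock Q library the fold change was 0.39. AKR1B15, its neighbour, had 15.0 and 18.2 CPM in H2O2 cells and 10.9 and 26.3 CPM in mock cells. AKR1B10 had between 20.3 and 24.8 reads for each AKR1B15 read in the 4 libraries, so their ratio was close to constant. AKR1B15 shared 18.6% of its 50-base windows with another family transcript, and 18.1% with AKR1B10. Whether its counts include reads of AKR1B10 was not tested, so its level is uncertain as that of a separate gene.

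AKR1B1, aldose reductase, which turns glucose into sorbitol, differed mainly by letter. It had 33.2 and 154 CPM in H2O2 cells and 30.5 and 128 CPM in mock cells. The log2 ratio of Q over H was 2.21 in H2O2 cells and 2.06 in mock cells, while the log2 fold change for treatment was 0.24 (SE 0.92; adjusted p = 0.957 by edgeR). AKR1D1, the steroid β-reductase of bile acid synthesis, had 4.77 and 15.8 CPM in H2O2 cells and 17.0 and 20.3 CPM in mock cells. Its groups did not overlap, with the H2O2 H library standing low, and the log2 fold change was -0.86 (SE 0.56; adjusted p = 0.772 by edgeR) or -0.24 without that library. AKR1A1, AKR7A2 and AKR7A3, reductases of small and aflatoxin-derived aldehydes, had log2 fold changes between -0.04 and 0.04.

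Among enzymes of retinal oxidation, ALDH1A1 had 4941 and 3398 CPM in H2O2 cells and 4854 and 2769 CPM in mock cells. The groups overlapped, and the H libraries exceeded the Q libraries. Its mean was 4169 ± 1091 CPM in H2O2 cells and 3811 ± 1474 CPM in mock cells (SD, n = 2 each), a log2 fold change of 0.13 (SE 0.40; adjusted p = 0.944 by edgeR). ALDH1A2 was far less abundant, with 1.99 and 0.861 CPM in H2O2 cells and 0.805 and 0.760 CPM in mock cells. The H2O2 H library was high and the other 3 were close together. Its log2 fold change was 0.86 (SE 0.47; adjusted p = 0.739 by edgeR), or 0.14 without the H2O2 H library.

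Enzymes of acetaldehyde and lipid aldehydes showed no difference detectable with these libraries. ALDH2 had 235 and 161 CPM in H2O2 cells and 216 and 177 CPM in mock cells, and ALDH1B1, its mitochondrial relative, 44.1 and 33.5 CPM in H2O2 cells and 29.2 and 51.3 CPM in mock cells. Their log2 fold changes were 0.01 and -0.05. ALDH3A2, the fatty aldehyde dehydrogenase, had 139 and 98.5 CPM in H2O2 cells and 139 and 101 CPM in mock cells, so the letters differed more than the treatments. ALDH3A1, known from cornea and from tumours, had 2.71 and 2.68 CPM in H2O2 cells and 3.51 and 3.06 CPM in mock cells. It was lower in both H2O2 libraries, with a log2 fold change of -0.29 (SE 0.24; adjusted p = 0.803 by edgeR). ALDH3B1 and ALDH3B2 had log2 fold changes of -0.19 and 0.30.

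Enzymes of amino acid breakdown and synthesis followed. ALDH6A1, the methylmalonate semialdehyde dehydrogenase of valine breakdown, had 40.8 and 18 CPM in H2O2 cells and 25.4 and 11.8 CPM in mock cells. It was higher within each letter, by a log2 ratio of 0.68 for H and 0.60 for Q, but the groups overlapped and the log2 fold change was 0.66 (SE 0.53; adjusted p = 0.799 by edgeR), or -0.05 without the H2O2 H library. ALDH18A1, the pyrroline-carboxylate synthase of proline synthesis, had 223 and 192 CPM in H2O2 cells and 381 and 175 CPM in mock cells. The mock H library stood alone, and the log2 fold change of -0.42 (SE 0.40; adjusted p = 0.822 by edgeR) was 0.26 without it. ALDH4A1 of proline breakdown, ALDH5A1 of γ-aminobutyrate breakdown and ALDH7A1 of lysine breakdown had log2 fold changes of 0.36, -0.23 and 0.16. ALDH8A1, ALDH9A1 of carnitine synthesis and ALDH16A1 had -0.03, -0.01 and -0.13.

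The members not yet given by library overlapped between the groups. AKR1A1 had 165 and 104 CPM in H2O2 cells and 153 and 109 CPM in mock cells, and AKR7A2 had 25.5 and 21.2 CPM in H2O2 cells and 29.5 and 18.4 CPM in mock cells. AKR7A3, at a far lower level, had 0.842 and 1.05 CPM in H2O2 cells and 1.29 and 0.578 CPM in mock cells. In these 3 reductases the mock libraries enclosed the H2O2 libraries or lay within their range. ALDH7A1 had 132 and 88.9 CPM in H2O2 cells and 130.5 and 66.7 CPM in mock cells, and ALDH9A1 had 67.3 and 61.3 CPM in H2O2 cells and 75.6 and 54.0 CPM in mock cells. ALDH16A1 had 66.3 and 56.8 CPM in H2O2 cells and 75.2 and 59.8 CPM in mock cells. In all 3 the H library exceeded the Q library in each group. ALDH3B1, which oxidises lipid-derived aldehydes, had 30.6 and 17.6 CPM in H2O2 cells and 35.8 and 19.1 CPM in mock cells, ALDH4A1 had 17.3 and 10.2 CPM in H2O2 cells and 11.8 and 9.68 CPM in mock cells, and ALDH5A1 had 17.4 and 10.2 CPM in H2O2 cells and 20.1 and 12.3 CPM in mock cells. They showed the same order of letters. ALDH8A1 had 1.91 and 2.58 CPM in H2O2 cells and 1.85 and 2.75 CPM in mock cells, with the Q library higher in each, and ALDH3B2 had between 0.103 and 0.176 CPM in the 4 libraries.

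For many members the libraries of a group differed more than the treatments did, and by family. The Q library exceeded the H library in both groups for 8 of 11 AKR genes (72.7%), against 36.7% of all genes tested. These AKR genes include AKR1B10 with AKR1B15, and AKR1C1 to AKR1C4. Reads may be shared within each of these sets, so the AKR genes are not separate signals. It lay below the H library in both groups for 14 of 18 ALDH genes (77.8%), against 32.7% of all genes tested. The median log2 ratio of Q over H was 0.39 in H2O2 cells and 0.88 in mock cells for AKR genes, and -0.52 in H2O2 cells and -0.40 in mock cells for ALDH genes, where all genes had 0.02 and 0.03. In mock cells this difference was larger in size than the H2O2 over mock ratio of the H libraries for 25 of the 35 members. Both ratios contain the mock H library, and the share over all genes tested was not computed. This count is therefore not a result particular to the members. The liver markers given above were also lower in the Q libraries of both groups, and their part in this pattern was not tested. Each letter is 1 library per group, so these shares carry no test.

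Within a letter, 14 members (40.0%) were higher in the H2O2 library in both H and Q, where 32.3% of all genes were, and 7 (20.0%) were lower in both, where 34.3% of all genes were. The 14 were 3 ADH, 6 ALDH and 5 AKR genes. The median member log2 ratio, H2O2 over mock, was 0.04 within H and 0.16 within Q.

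**Figure D4:**
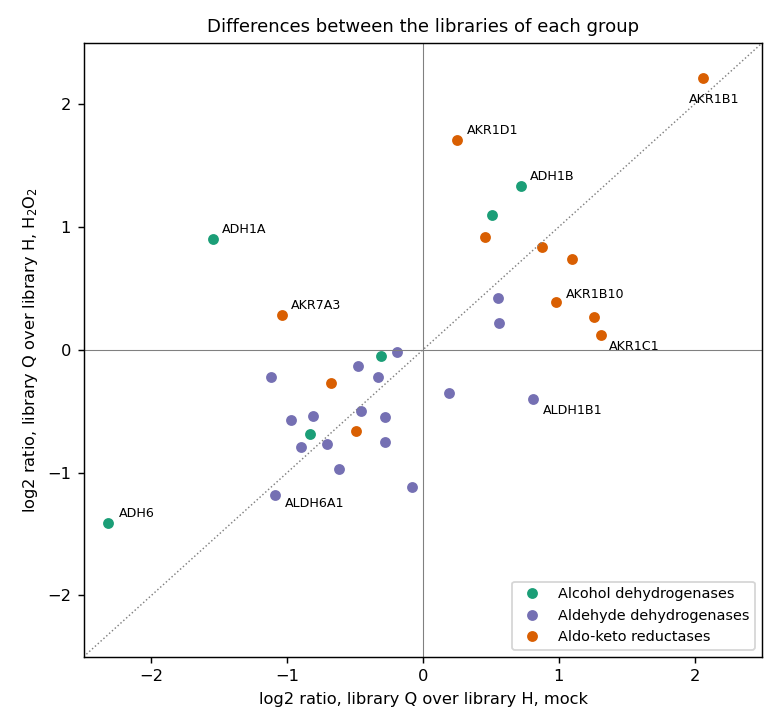
log2 ratio of library Q over library H in H2O2 cells (vertical axis) against that in mock cells (horizontal axis) for the 35 members, coloured by family, with the dotted line of equal ratios. Most ALDH genes lie below 0 on both axes and most AKR genes above 0, and AKR1B1 lies farthest out, at 2.21 in H2O2 cells and 2.06 in mock cells.

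Genes that act with these enzymes were read from 5 lists, and none of their genes passed an adjusted p of 0.05 in edgeR's test. At an unadjusted p of 0.05, the counts higher and lower were 1 and 2 of 23 in the retinoid list, 0 and 2 of 24 in the NRF2 list, 1 and 2 of 16 in the other reductases, 0 and 3 of 22 in the steroid and bile acid list and 0 and 0 of 5 in the ethanol and acetate list, where 3.11% of all genes tested were higher and 3.79% lower. In the retinoid list, 10 of 23 tested genes had a positive and 13 a negative log2 fold change, with a median of -0.087. STRA6, the receptor for retinol-binding protein, had 0.166 and 0.309 CPM in H2O2 cells and 1.29 and 0.520 CPM in mock cells, a log2 fold change of -1.91 (SE 0.61; adjusted p = 0.719 by edgeR). CYP26A1, which clears retinoic acid, had 3.51 and 2.27 CPM in H2O2 cells and 18.4 and 1.65 CPM in mock cells. The mock H library alone was high, and the log2 fold change of -1.80 (SE 1.05) was 0.82 without it. CYP26B1, an enzyme of the same clearance that was named after its values were seen, had 34.2 and 27.9 CPM in H2O2 cells and 14.9 and 21.5 CPM in mock cells. It was higher in both H2O2 libraries, with a log2 fold change of 0.77 (SE 0.26), an unadjusted p of 0.0311 and an adjusted p of 0.719 by edgeR. RDH12, a retinal reductase, had -0.96 (SE 0.78), or 0.19 at the upper end over left-out libraries.

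In the NRF2 list, 16 of 24 genes were above 0 and 8 below, with a median of 0.107. HMOX1, heme oxygenase, had 33.5 and 60.3 CPM in H2O2 cells and 79.8 and 84.9 CPM in mock cells. ABCC3, a transporter of conjugates, had 129 and 119.8 CPM in H2O2 cells and 193 and 235 CPM in mock cells. Both were lower in H2O2 cells without overlap, with log2 fold changes of -0.81 (SE 0.32) and -0.78 (SE 0.21). FTL, ferritin light chain, and MAFF, a partner of NRF2, had 0.54 (SE 0.43) and 0.50 (SE 0.33). FTL was 0.09 without the H2O2 H library, and MAFF 0.14 without the mock H library.

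Other carbonyl and quinone reductases had 12 of 16 genes above 0, with a median of 0.242. GLO1, which clears methylglyoxal, had 342 and 232 CPM in H2O2 cells and 195 and 141 CPM in mock cells, a log2 fold change of 0.77 (SE 0.30; adjusted p between 0.719 and 0.939, as for every list gene named, by edgeR). TP53I3, a quinone reductase and p53 target, had 20.7 and 28.0 CPM in H2O2 cells and 43.8 and 36.5 CPM in mock cells, a log2 fold change of -0.72 (SE 0.24). The groups overlapped in neither gene. NQO2 and DCXR, a xylulose reductase, had 0.72 (SE 0.39) and 0.51 (SE 0.57), and NQO2 was 0.21 without the H2O2 H library.

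Steroid and bile acid enzymes had 11 of 22 tested genes above 0 and 11 below, with a median of -0.125. HSD17B3, which forms testosterone, had 12.1 and 9.02 CPM in H2O2 cells and 18.7 and 16.8 CPM in mock cells, without overlap, a log2 fold change of -0.75 (SE 0.24). HSD3B2, SRD5A2 and AMACR, which act in steroid and bile acid synthesis, had -1.76 (SE 0.69), 0.67 (SE 0.71) and -0.62 (SE 0.27). HSD3B2, at a very low level, had 0.0489 and 0.0418 CPM in H2O2 cells and 0.103 and 0.206 CPM in mock cells. SRD5A2 was also low, with 0.157 and 0.376 CPM in H2O2 cells and 0.0929 and 0.239 CPM in mock cells. In limma at pseudocount 1, HSD3B2 had -0.45 and SRD5A2 0.07. AMACR had 34.8 and 35.1 CPM in H2O2 cells and 66.0 and 41.7 CPM in mock cells. Of the 5 other ethanol and acetate enzymes, 4 were above 0, with a median of 0.143. CYP2E1, the cytochrome of ethanol oxidation, had -0.48 (SE 0.27), ACSS3 and ACSS1, which activate short-chain acids, 0.29 (SE 0.32) and 0.14 (SE 0.40), and catalase (CAT) 0.15 (SE 0.34).

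**Figure D5:**
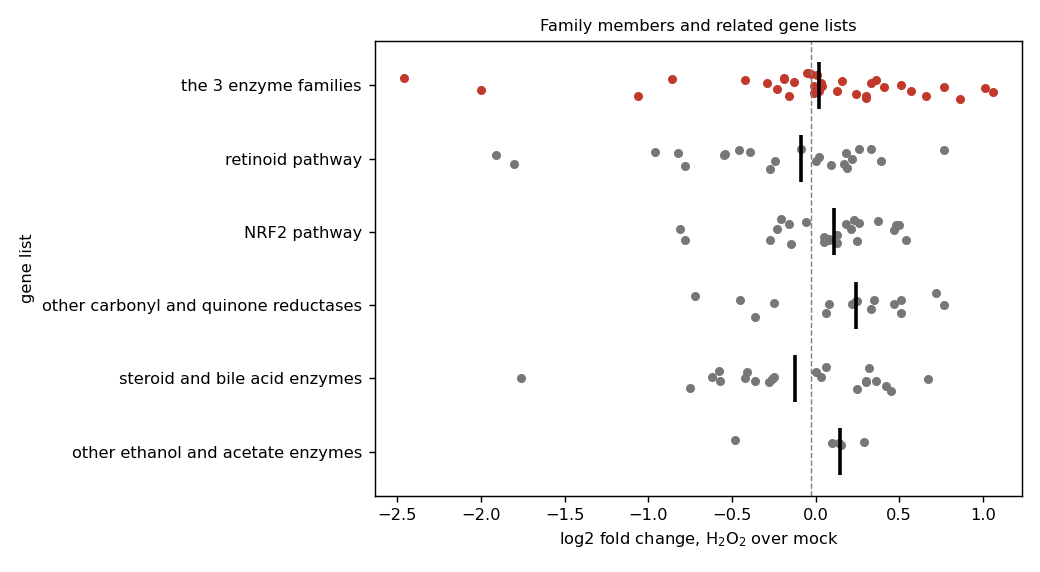
log2 fold change, H2O2 over mock, of each tested gene in the 3 enzyme families (red) and in the 5 related lists (grey), with black bars at the list medians and a dashed line at the median of all genes, -0.029. The list medians lie between -0.125 and 0.242, close to 0 beside the spread of their genes.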

How the data were processed

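RNA-seq of Huh7 cells was used, 2 libraries in H2O2 and 2 in mock medium, grouped by the treatment label. Per the file headers, the deposited tables hold, for each transcript model, reads as a count and a level named FPKM. The FPKM values did not follow reads per transcript length. In the H2O2 H library, ALDH1B1 (2 exons, 3066 bases) had 4504 reads and an FPKM of 26.7. ALDH4A1 (15 exons, 3363 bases) had 1771 reads and an FPKM of 109 there. How FPKM was computed is not given in the sources used here, and the limma fits and the FPKM filter used it as it stands. Per the submitters' processing notes, the software named was CASAVA, Bowtie 0.12.2, TopHat 1.3.3 and Cuffdiff, with the builds mm8, hg19 and GRCh37. How reads were counted, the annotation and whether strand was used are not given in the sources used here. If strand was not used, reads of overlapping antisense genes are included.

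One row per gene was kept, that of the highest count over the 4 libraries, and 27514 genes passed filterByExpr (minimum count 10). edgeR 4.0.16 (R 4.3.3) tested H2O2 against mock by a two-sided quasi-likelihood test with TMM scaling and Benjamini-Hochberg adjustment over all genes tested; SE is the absolute log2 fold change divided by the square root of F. Ratios within a letter are of CPM plus 0.1. DESeq2 1.42.0, limma 3.58.1 on log2(FPKM + 1) and log2(FPKM + 0.1), 2 other scalings, 2 other filters, summed rows, genes with an mRNA row, a letter block and left-out libraries were alternatives. Coding lengths leave out the stop codon and came from GENCODE v29 through RefSeq accessions for all 38 members. Untranslated regions count in the reads and not in that length, so levels per kilobase are approximate.

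The rule for members named with the value in every library took AKR1B10, AKR1C1, the highest per length in each family, and those with a log2 fold change of at least 0.5 in size or an adjusted p under 0.05; library values of the other members are given as well. Up to 4 genes of the largest fold change are named per list, and 1 gene of the retinoid list that this rule would name is not reported here. CYP26B1 was added after its values were seen. Members and lists were chosen with earlier results of these data known. Sums over related genes were added after seeing the data.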

Additional observations from a re-analysis of the deposited data

How the results depend on the processing

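Across 55 genes and the alternatives that kept all 4 libraries, 527 of 555 fold changes kept their direction and side of the threshold, 25 changed sign and 3 came past the threshold, namely ADH1C and ALDH1L2 in DESeq2 and ALDH1L2 with the replicate block. In these counts a fold change that rounded to 0 was taken as keeping its direction. A missing adjusted p, as for ADH1B and HSD3B2 in DESeq2, was taken as not past the threshold. ADH1B, ALDH3B2, HSD3B2 and SRD5A2 had no value with the FPKM filter. Each sum over related genes was counted once for every gene in it. Calls over all genes were 0 higher and 0 lower in edgeR's main setting. DESeq2 called 33 higher and 105 lower, 2 of these members. Without a filter 9 genes were lower. With the replicate block 8 genes were higher and 37 lower, 1 of these a member. The difference between the Q and H libraries of H2O2 cells correlated with that of mock cells across genes with r = 0.53. The labels do not say what the letters share and there are 2 pairs only, so the letter was not a term of the reported fit. limma gave 4 members higher without overlap and a median of 0.105 at both pseudocounts. Sign changed for small fold changes: with DESeq2 size factors and with DESeq2, ALDH3A2 0.02 and ALDH9A1 0.02; with upper-quartile factors, ADH4, AKR1A1 and AKR7A3 each -0.02 and ALDH2 -0.05; with the FPKM filter, ALDH2 -0.01; with mRNA genes alone, ADH4 -0.01, AKR7A3 -0.02 and ALDH2 -0.03; with the replicate block, ALDH2 -0.01 and ALDH9A1 0.01; with ADH1 genes summed, ADH1B -1.73. In limma at pseudocounts 1 and 0.1 they were ALDH1B1 0.12 and 0.13, ALDH3A2 0.11 and 0.11, ALDH3B2 -0.08 and -0.19, ALDH8A1 0.20 and 0.23, and ALDH9A1 0.05 and 0.05. The cause of these changes was not tested.

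Leaving out 1 library at a time gave 0 to 1 genes higher and 0 to 12 lower, the most without mock Q, 7 to 14 members higher and 5 to 13 lower without overlap, where fewer samples make overlap rarer, and a member median of -0.128 to 0.216. The lone library of a group was then assumed to vary like the others. Of 220 such fold changes 50 changed sign. The lowest and highest values of those genes were: ADH1A (-1.84 and 0.20), ADH1B (-1.01 and 2.57), ADH4 (-0.13 and 0.22), ADH5 (-0.08 and 0.79), ADH6 (-0.11 and 2.42), AKR1A1 (-0.33 and 0.35), AKR1B1 (-1.22 and 1.61), AKR1B10 (-0.59 and 0.39), AKR1B15 (-0.65 and 0.60), AKR1C3 (-0.05 and 0.93), AKR1C4 (-0.21 and 0.74), AKR7A2 (-0.34 and 0.35), AKR7A3 (-0.45 and 0.72), ALDH16A1 (-0.29 and 0.05), ALDH18A1 (-0.88 and 0.26), ALDH1A1 (-0.22 and 0.60), ALDH1B1 (-0.39 and 0.40), ALDH1L1 (-0.01 and 1.01), ALDH2 (-0.29 and 0.28), ALDH3A2 (-0.28 and 0.25), ALDH3B1 (-0.64 and 0.34), ALDH3B2 (-0.01 and 0.59), ALDH4A1 (-0.07 and 0.71), ALDH5A1 (-0.68 and 0.18), ALDH6A1 (-0.05 and 1.32), ALDH7A1 (-0.25 and 0.74), ALDH8A1 (-0.28 and 0.28), ALDH9A1 (-0.24 and 0.26), CYP26A1 (-2.68 and 0.82), RDH12 (-1.82 and 0.19), DCXR (-0.21 and 1.32), SRD5A2 (-0.07 and 1.51), ACSS3 (-0.11 and 0.63), CAT (-0.25 and 0.49), ACSS1 (-0.04 and 0.37). Among the other genes named, the fold change kept its sign, and the lowest and highest values were: ADH1C (-3.40 and -1.90), AKR1C1 (0.50 and 1.80), AKR1C2 (0.07 and 1.15), AKR1D1 (-1.95 and -0.24), ALDH1A2 (0.14 and 1.36), ALDH1L2 (-2.25 and -1.69), ALDH3A1 (-0.39 and -0.18), STRA6 (-2.43 and -1.11), CYP26B1 (0.54 and 1.06), HMOX1 (-1.28 and -0.45), ABCC3 (-0.91 and -0.64), FTL (0.09 and 1.0), MAFF (0.14 and 1.0), GLO1 (0.47 and 1.04), TP53I3 (-0.94 and -0.52), NQO2 (0.21 and 1.1), HSD3B2 (-2.15 and -1.17), HSD17B3 (-0.98 and -0.54), AMACR (-0.92 and -0.25), CYP2E1 (-0.71 and -0.26). Low counts limit the class I ADH genes, ALDH3B2 and the 3 members that did not pass the filter. They also limit STRA6, RDH12, HSD3B2, SRD5A2 and ACSS1 of the related lists.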
